A study of Mus musculus with 24 samples.

Results

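The genes described here encode the subunits of the respiratory chain and the ATP synthase, with the factors that assemble complexes I and II. They were chosen by symbol on the array's annotation: every gene whose symbol starts with Nduf, Sdha, Sdhb, Sdhc, Sdhd, Uqcr, Cox4, Cox5, Cox6, Cox7, Cox8 or Atp5, without Cox7a1 and Cox8b. The choice used no measured genotype or time difference. Of 19938 genes with a probe set of a single symbol, 91 met the rule. Complex I gave 6 core subunits, 28 supernumerary subunits and 7 assembly factors, complex II gave 4 subunits and 4 assembly factors, complex III 8, complex IV 17 and the ATP synthase 17. Complex IV here includes Ndufa4, now assigned to that complex, and its paralogue Ndufa4l2.

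RNA came from the inguinal fat pad, a subcutaneous depot, of chow-fed mice of C57BL/6J background. Knockout animals were aP2-Cre+/- Bmal1fx/fx, so that Cre driven by the aP2 (Fabp4) promoter deletes the clock factor Bmal1 in adipocytes. Control animals were Bmal1fx/fx and carried no Cre, so an effect of Cre cannot be told apart from one of the deletion, and aP2 promoters can also act outside adipocytes. All animals shared the floxed alleles, 36 h of constant darkness before collection began and a fast of 24 h. Pads were taken at circadian time (CT) 0, the start of the subjective day, and at CT6, CT12 and CT18, with 3 arrays per genotype and time and 24 in all. The sources used here do not give the ages of the animals. Values are log2 expression, differences are knockout minus control or later minus earlier time, and errors are limma standard errors (SE) unless a standard deviation (SD) is named.

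The respiratory chain passes electrons from NADH through complex I, and from succinate through complex II, to ubiquinone, complex III, cytochrome c and complex IV, where oxygen is reduced. Complexes I, III and IV pump protons across the inner mitochondrial membrane, and the ATP synthase uses their return to make ATP. White adipocytes hold fewer mitochondria than brown ones, but they rely on them for lipogenesis, for handling fatty acids and for adipokine secretion. BMAL1 pairs with CLOCK to bind E-box sequences, while GABPA (NRF-2), NRF1 and the oestrogen-related receptors are textbook regulators of nuclear respiratory genes.

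Arrays of a group correlated with each other at 0.976 to 0.995 over all genes, and the median gene lay between 6.46 and 6.56 on every array. Arntl, the gene of BMAL1, differed by genotype by -0.54 at CT0, 0.23 at CT6, 0.40 at CT12 and -0.06 at CT18. Which exons were deleted, and whether the probe set lies in them, is unknown here, so Arntl is no check of the deletion. Defining adipocyte markers were high, with Adipoq at a mean of 12.0 and Fabp4 at 12.5 over the 24 arrays. The array of knockout replicate 2 at CT0 stood apart: its 6 mammary and skin epithelium markers lay a median of 1.30 above, its 6 uterine epithelium markers 1.06 above and its 9 adipocyte markers 0.60 below their means over all arrays. Control replicate 2 at CT0 lay high in its 6 smooth muscle and pericyte markers (median 1.10 above their means) and its 10 brown and beige markers (0.46), and control replicate 2 at CT6 was also high in the latter (0.39). The summaries of the 91 genes at CT0, and the genes and lists described there, are also given without both replicate 2 arrays of that time.

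Genes of the oxidative machinery gave bright signals. The median of the 91 was 10.0, and 86 lay above 6.50, the median over all genes tested. Mean signals ran from 8.53 (Atp5g1) to 12.0 (Atp5j2) in the ATP synthase, from 3.68 (Cox7b2) to 12.3 (Cox6c) in complex IV and from 8.55 (Uqcrc1) to 11.6 (Uqcrh) in complex III. Those of complex II ran from 7.50 (Sdhaf2) to 10.4 (Sdha) and those of complex I from 6.15 (Ndufaf6) to 11.3 (Ndufc2). Signals of different probe sets depend on their probes, so these ranges do not rank the RNAs. The 5 genes under the median gene were Cox7b2, Cox8c, Ndufaf6, Cox4i2 and Ndufa4l2, and array data of this kind do not show whether such dim RNAs were detected. The spread within groups was small, with a median pooled SD of 0.13, the same as over all genes, and it ran from 0.05 for Cox6c to 0.27 for Atp5g2.

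Averaged over the 4 times, respiratory chain and ATP synthase genes were at near-equal levels in knockout and control fat. The median difference was -0.01 on the log2 scale, beside 0.00 over all genes (64 of 91 lower, 27 higher), and 85 genes lay between -0.1 and 0.1. By the limma test with adjustment over all genes, 0 of 91 passed at 0.05, where 0.0201% of all genes passed. At an unadjusted p under 0.05 there were 3 (Ndufv3, Ndufa4l2 and Ndufv1), or 3.3%, beside 6.07% of all genes. That count was 6 without knockout replicate 1 at CT0, and 1 without replicate 1 at CT12 and replicate 3 at CT18 of both genotypes. For 76 genes the 95% interval of the averaged difference lay within 0.2 of zero, and for all 91 within 0.4. The excess of lower genes rested on CT0: without both replicate 2 arrays of that time 29 were lower and 62 higher, with a median of 0.01, and without knockout replicate 2 alone 37 were lower and 54 higher. In the same average, endothelial markers were lower in 8 of 8 cases (median -0.17, 7 at an unadjusted p under 0.05 in limma). Brown and beige markers were lower in 8 of 10 (median -0.18, 2) and adipocyte markers in 8 of 9 (median -0.05, 0). Their part in the averaged differences, also those of single genes, was not tested.

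Ndufv3, a small supernumerary subunit of the flavoprotein part of complex I, had the smallest p, and it was the only one of the 91 genes with a higher mean in knockout fat at all 4 times. In control fat it read 10.17, 10.48 and 10.31 at CT0, 10.16, 10.27 and 10.23 at CT6, 10.50, 10.09 and 10.07 at CT12, and 10.30, 10.20 and 10.51 at CT18 (replicates 1 to 3). In knockout fat it read 10.48, 10.20 and 10.34, then 10.51, 10.69 and 10.54, then 10.28, 10.38 and 10.45, and last 10.73, 10.63 and 10.35. Of the 12 knockout arrays 11 were above the control mean at their time, and at CT6 the genotypes did not overlap. The averaged difference was 0.19 ± 0.06 (limma adjusted p = 0.515). With replicate 1 at CT12 and replicate 3 at CT18 of both genotypes left out, it was 0.29 ± 0.05 and passed over all genes (limma adjusted p = 0.00836), and over the other alternatives for this gene the adjusted p ran from 0.0510 with array weights to 0.793 without control replicate 3 at CT12.

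Ndufv1, the core subunit that carries the flavin and oxidises NADH, leaned the other way. In control fat it read 8.95, 9.17 and 9.02 at CT0, 8.89, 8.92 and 9.10 at CT6, 9.10, 8.95 and 8.85 at CT12, and 9.01, 8.90 and 9.15 at CT18. In knockout fat the readings were 9.00, 8.54 and 8.83, then 8.75, 9.12 and 8.87, then 9.02, 8.71 and 8.98, and last 8.95, 8.88 and 8.62. Of the 12 knockout arrays 9 were below the control mean at their time, and the groups overlapped at all 4 times. Its averaged difference was -0.15 ± 0.06 (limma adjusted p = 0.763).

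Ndufa4l2, a paralogue of Ndufa4 known as a hypoxia-induced gene, was lower in knockout means at all 4 times. Control arrays read 6.57, 6.11 and 6.65 at CT0, 6.53, 6.30 and 6.60 at CT6, 6.44, 6.37 and 6.32 at CT12, and 6.32, 6.36 and 6.62 at CT18. Knockout arrays read 6.09, 5.98 and 6.48, then 6.16, 6.21 and 6.36, then 6.34, 6.02 and 6.26, and last 6.55, 6.17 and 6.24. Of the 12 knockout arrays 10 were below the control mean at their time, on a probe set dimmer than the median gene. The averaged difference was -0.19 ± 0.07 (limma adjusted p = 0.661). Cox5a, a structural subunit of complex IV that faces the matrix, differed by -0.10 ± 0.06 (limma adjusted p = 0.861). Its control arrays read 9.98, 10.24 and 9.97 at CT0 and its knockout arrays 9.95, 9.55 and 9.75, with no overlap, but at CT18 knockout replicate 3 read 10.26, above all control arrays of that time. Next by p were Ndufa3 (-0.07 ± 0.04) and Sdhb (-0.08 ± 0.06) among the lower genes. Cox6b1 and Uqcrc1 were the remaining genes with a lower knockout mean at every time, by averages of -0.06 and -0.08.

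**Figure D1:**
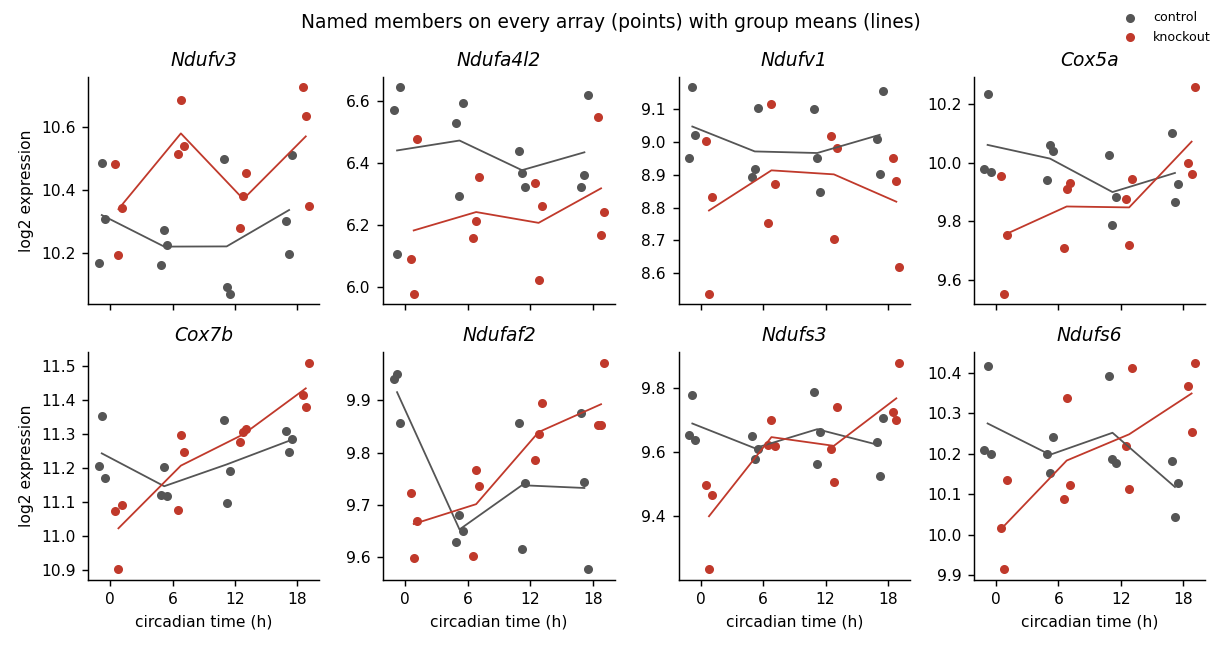
Log2 expression (y axis) of 8 genes against circadian time in hours (x axis), with control arrays in grey, knockout arrays in red and lines through the group means of 3 arrays. Ndufv3 lies higher in knockout means at all 4 times and Ndufa4l2 and Ndufv1 lower, while the knockout lines of Cox7b, Ndufaf2, Ndufs3 and Ndufs6 start below the control line at CT0 and end above it at CT18.

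Promoter windows are shown because BMAL1 acts through E-boxes. Ndufv3 and Ndufv1 had the smallest p for the averaged difference among the genes with a window, and both belong to the same part of complex I. The windows are RefSeq sequences of build GRCm38.p6 that cover 250 bases before to 50 bases after the annotated start, in the gene's direction: Ndufv3 at chr17:31519865-31520164 on the plus strand and Ndufv1 at chr19:4012706-4013005 on the minus strand. Capitals mark an E-box (CACGTG), which of these only the Ndufv1 window holds. The windows of Cox5a and Ndufa3, next by p and lower on average like Ndufv1, held no E-box and are not printed.
Ndufv3: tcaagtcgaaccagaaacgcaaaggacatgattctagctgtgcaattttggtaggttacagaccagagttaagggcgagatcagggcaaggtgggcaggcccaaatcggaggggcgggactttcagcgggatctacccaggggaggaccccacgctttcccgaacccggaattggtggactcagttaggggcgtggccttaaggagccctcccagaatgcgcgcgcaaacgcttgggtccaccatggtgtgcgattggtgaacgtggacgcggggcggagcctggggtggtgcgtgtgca
Ndufv1: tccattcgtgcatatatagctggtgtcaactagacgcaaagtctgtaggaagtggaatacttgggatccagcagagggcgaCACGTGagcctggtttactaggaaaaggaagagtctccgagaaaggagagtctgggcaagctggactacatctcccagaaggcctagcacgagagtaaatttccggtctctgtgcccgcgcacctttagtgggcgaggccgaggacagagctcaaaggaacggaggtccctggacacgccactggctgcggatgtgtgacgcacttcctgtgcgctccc
A window was found for 75 of the 91 genes (80 windows), and both strands were searched. The E-box CACGTG was in 7 windows (8.8%), beside 7.15% of 32851 windows of all genes. The ETS letters CCGGAAG, read by GABPA, were in 21 (26.2%) beside 8.858%, the NRF1 core GCGCATGC in 12 (15.0%) beside 2.712%, and the oestrogen-related receptor (ERR) motif TCAAGGTCA in 2 (2.5%) beside 0.423%. Median GC content was 58.7% in these windows and 52.7% in all. At CT0 the median genotype difference was -0.14 for the 6 genes with an E-box and -0.21 for those without, and -0.20 with the ETS letters and -0.20 without. A match is a stretch of letters and was not tested as a binding site.

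At CT0 the respiratory chain and ATP synthase genes lay lower in knockout fat as a block, by a median of -0.19, beside 0.01 over all genes. Of the 91 genes 86 were lower and 5 higher. None passed over all genes (limma, 0 of 91, beside 0% of all genes), and 27 reached an unadjusted p under 0.05, all of them lower. That is 29.7%, beside 5.55% of all genes in either direction and 2.78% of all genes in the lower direction. All 3 knockout arrays lay below all 3 control arrays for 28 genes (4.47% of all genes did), and above them for 0 (6.28% of all genes). Fewer mitochondria-rich cells and less of these RNAs per cell cannot be told apart in whole tissue.

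The lower values at CT0 ran through every complex. In complex I the 6 core subunits were all lower (median -0.25, 4 at an unadjusted p under 0.05), as were 27 of 28 supernumerary subunits (median -0.21, 10) and the 7 assembly factors (median -0.13, 1). The 4 subunits of complex II were lower (median -0.14, 1), as were its 4 assembly factors (median -0.26, 2) and the 8 genes of complex III (median -0.22, 3). In complex IV 13 of 17 were lower (median -0.14, 2), and in the ATP synthase 17 of 17 (median -0.12, 4). Without both replicate 2 arrays the medians were -0.09 for the core, -0.06 for the supernumerary subunits and -0.08 for the assembly factors of complex I, -0.01 for complex II, -0.14 for its assembly factors, -0.05 for complex III, -0.04 for complex IV and -0.01 for the ATP synthase, where 9 of 17 were lower. With all arrays, the 5 genes not lower were Ndufv3 (0.02), Cox7a2l (0.01) and the tissue-restricted isoforms Cox6a2 (0.05), Cox7b2 (0.02) and Cox8c (0.23).

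**Figure D2:**
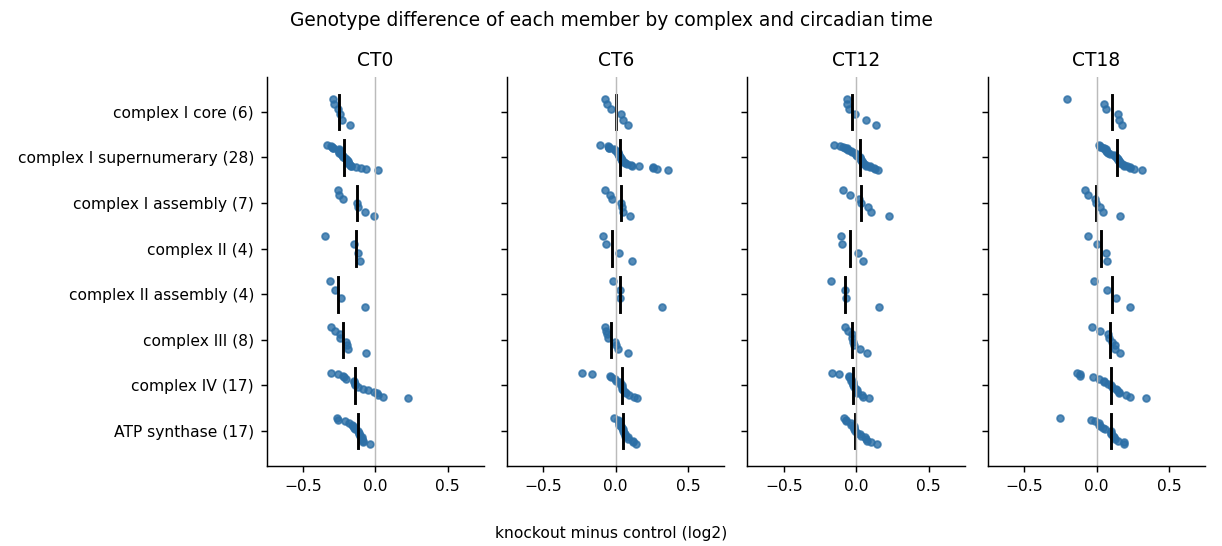
Knockout minus control difference on the log2 scale (x axis) of each gene, by complex (y axis, number of genes in brackets), at the 4 circadian times. Each point is a gene and each vertical bar a median. At CT0 nearly all points lie left of zero. At CT6 and CT12 most complexes straddle it, but 16 of 17 ATP synthase genes lie to its right at CT6. At CT18 all 28 supernumerary subunits of complex I lie to its right.

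Ndufa3, a supernumerary subunit of complex I, had the smallest p at CT0. Its control arrays read 9.72, 9.81 and 9.78, and its knockout arrays 9.61, 9.30 and 9.52. The genotypes did not overlap, with replicate 2 the lowest knockout array. The difference was -0.29 ± 0.09 (limma adjusted p = 0.635). Ndufs3, a core subunit near the quinone site, read 9.65, 9.78 and 9.64 in controls and 9.50, 9.23 and 9.47 in knockouts, a difference of -0.29 ± 0.09 (limma adjusted p = 0.641). Ndufaf2, an assembly factor related to Ndufa12, read 9.94, 9.95 and 9.86 in controls and 9.72, 9.60 and 9.67 in knockouts, a difference of -0.25 ± 0.08 (limma adjusted p = 0.736). Neither gene's genotypes overlapped at CT0. Sdhb, the iron-sulphur subunit of complex II, had the most negative difference of the 91 with all arrays. It read 9.52, 9.76 and 9.52 in controls and 9.37, 8.99 and 9.39 in knockouts, a difference of -0.35 ± 0.12 (limma adjusted p = 0.794). Without knockout replicate 2 the Sdhb difference was -0.22, and without both replicate 2 arrays it was -0.14. Without both, Ndufaf2 differed by -0.20, Ndufa3 by -0.18, Ndufs3 by -0.16 and Cox5a by -0.12, and the most negative of the 91 was Ndufa4l2 at -0.32.

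Cox8c, a testis isoform of complex IV, was the highest at CT0 by difference, at 0.23 ± 0.11 (0.16 without both replicate 2 arrays). Cox6a2, the heart and muscle isoform, differed by 0.05 and Cox7b2, another testis isoform, by 0.02. Both of the last change sign under some alternatives: without both replicate 2 arrays of CT0, Cox6a2 differed by -0.07, and with arrays centred on the median gene Cox7b2 differed by -0.0043.

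The median difference at CT0 was smaller without the replicate 2 arrays. Summarised as the median of the 91 genes' deviations from their own 24-array means, controls read -0.0052, 0.12 and 0.01 and knockouts -0.04, -0.30 and -0.08. The genotypes did not overlap, but knockout replicate 2 was far below the others and control replicate 2 was the highest of its group. Of the 91 genes, 67 had their lowest value of all 24 arrays on knockout replicate 2, where 13.5% of all genes did, and 8 had their highest on control replicate 2, beside 1.9%. Without knockout replicate 2, the median was -0.10, with 79 lower and 6 at an unadjusted p under 0.05. Without control replicate 2, the median was -0.14, with 87 lower and 5 at that p. Without both, the median was -0.06, with 66 lower and 1 at that p. Without knockout replicate 1 the count was 41. The replicate 2 arrays were the lowest knockout and the highest control array by this summary, and were picked after seeing the data. Leaving them out therefore had to shrink the difference. Fewer arrays also widen the errors at an equal spread, so a lower count alone does not show a smaller difference. The shares of all genes under these settings are not given here, so these counts are set beside each other only. Without both replicate 2 arrays, adipocyte markers were lower in 3 of 9 cases (median 0.07), and smooth muscle and pericyte markers higher in 6 of 6 (median 0.68, 4 at that p).

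**Figure D3:**
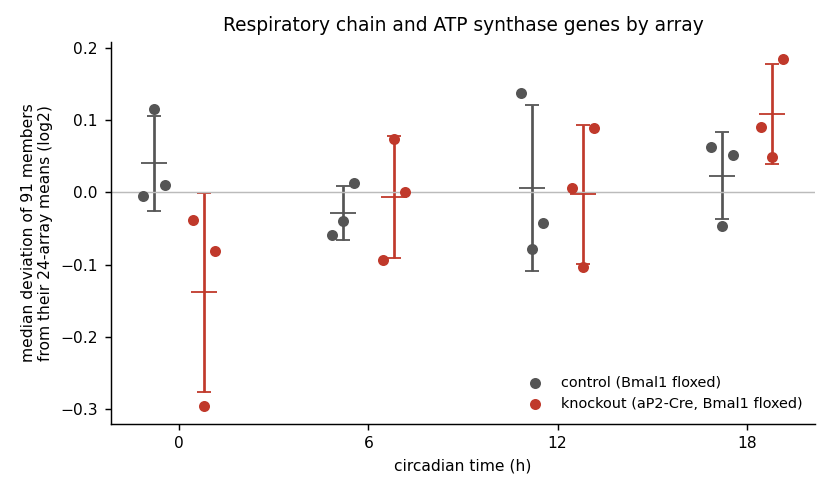
Median deviation of the 91 genes from their 24-array means, on the log2 scale (y axis), against circadian time in hours (x axis). Each point is an array, with controls in grey and knockouts in red, the horizontal bars are group means and the error bars SD (n = 3). Knockout replicate 2 at CT0 lies at -0.30, the lowest of the 24 arrays, and knockout replicate 3 at CT18 at 0.18, the highest.

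Markers of other cells moved with these arrays. At CT0 the summed adipocyte markers (9 genes, 9 lower in knockout means) ran from 14.5 to 14.6 in controls and from 14.1 to 14.6 in knockouts. Mammary and skin epithelium markers (6 genes, 6 higher) ran from 9.05 to 9.13 and from 9.04 to 10.4, and uterine epithelium markers (6 genes, 6 higher) from 8.44 to 8.57 and from 8.42 to 10.1. Smooth muscle and pericyte markers (6 genes, 5 higher) ran from 11.8 to 13.0 and from 12.5 to 13.2, macrophage markers (7 genes, 7 lower) from 11.3 to 11.8 and from 10.9 to 11.8, and brown and beige markers (10 genes, 6 lower) from 9.70 to 10.6 and from 9.60 to 9.75. The top of each epithelial range and the bottom of the adipocyte and macrophage ranges were knockout replicate 2, and the tops of the brown and beige and the smooth muscle ranges of controls were control replicate 2. Log2 array signals have no true zero, so no marker can be called absent. The brown fat marker Ucp1 had a mean of 4.51. The part of these cells in the result was not tested. Skeletal muscle markers (12 genes, 8 lower) ran from 10.3 to 10.5 in controls and from 10.4 to 10.5 in knockouts.

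**Figure D4:**
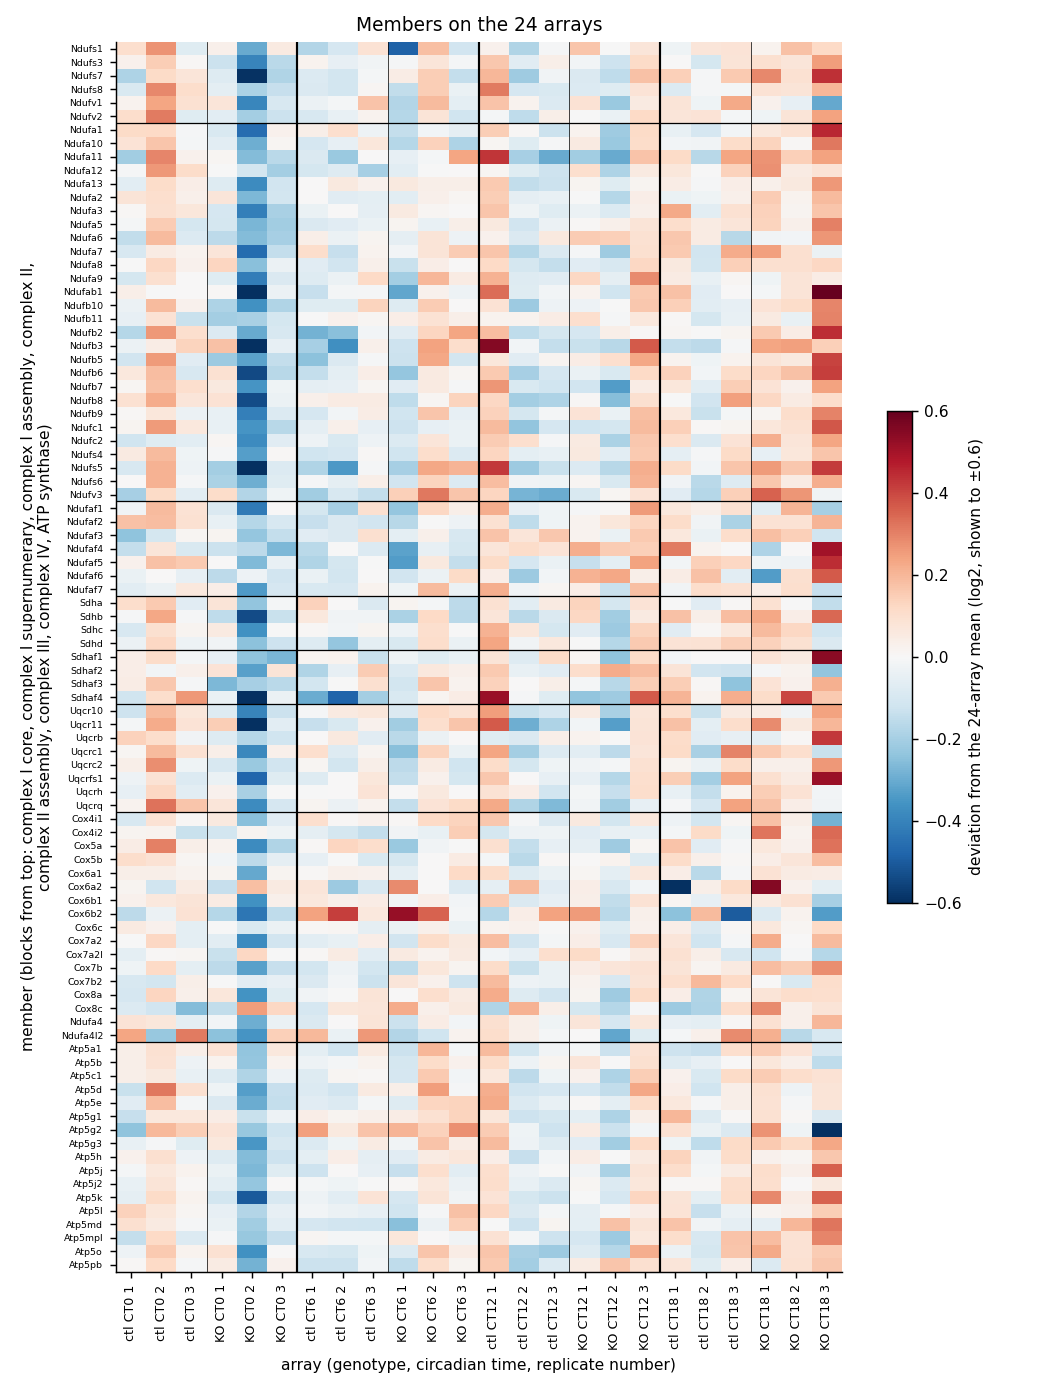
Deviation of each of the 91 genes (rows, in blocks by complex) from its 24-array mean on the log2 scale, shown to ±0.6, on the 24 arrays (columns, by circadian time, genotype and replicate). Blue prevails across all complexes in the column of knockout replicate 2 at CT0, with 87 genes below their means. Red prevails in several columns, among them control replicate 1 (9 below) and knockout replicate 3 (7 below) at CT12, and control replicate 2 at CT0 (11 below). In the column of knockout replicate 3 at CT18, 23 genes were below, and complex II had a median of -0.10.

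At CT6 and CT12 the genotypes were close. At CT6 the median difference was 0.03, with 63 genes higher and 28 lower, and at CT12 -0.01, with 43 higher and 48 lower. Leaving out 1 array turned the sign of both: the CT6 median was -0.0044 without knockout replicate 2, and the CT12 median was 0.07 without control replicate 1 and 0.05 without knockout replicate 2. None of the 91 passed over all genes at either time (limma, 0% of all genes passed at CT6 and 0% at CT12). At an unadjusted p under 0.05 there were 2 at CT6, Ndufv3 and Ndufb2, beside 3.77% of all genes, and 0 at CT12 beside 2.49%. Knockout arrays lay entirely below controls for 1 gene at CT6 (6.27% of all genes) and above for 7 (5.01%), and at CT12 below for 0 (5.12%) and above for 2 (2.97%). By complex, the ATP synthase was the most one-sided at CT6, with 16 of 17 genes higher (median 0.05, 0 at an unadjusted p under 0.05). Ndufb2, a membrane-arm subunit of complex I, read 7.96, 7.99 and 8.22 in controls and 8.17, 8.37 and 8.48 in knockouts at CT6. The groups overlapped, and the difference was 0.28 ± 0.12 (limma adjusted p = 1.00). Leaving out replicate 1 or 2 of controls, or replicate 2 or 3 of knockouts, took the count at CT6 to 1. Sdhaf4 (0.32 ± 0.17) came next among the higher genes, and Ndufa4l2 (-0.23 ± 0.14), Cox5a (-0.16 ± 0.11) and Ndufa1 (-0.11) led the lower ones. Ndufaf6, an assembly factor, had the smallest p at CT12, at 0.22 ± 0.12, before Atp5pb (0.15) and Sdhaf2 (0.16). Ndufb7 (-0.15), Ndufa4l2 (-0.17) and Sdhd (-0.10) led the lower genes there. These rested on single arrays: Ndufb7 was -0.03 without control replicate 1, Ndufa4l2 -0.08 and Sdhd -0.01 without knockout replicate 2, and Atp5pb 0.07 without control replicate 2. The count of 0 at CT12 was 2 without control replicate 1 or without knockout replicate 3 of that time, 1 without knockout replicate 1 or 3 of CT18, and 3 without replicate 1 at CT12 and replicate 3 at CT18 of both genotypes. At CT6 brown and beige markers (10 genes, 9 lower in knockout means) ran from 9.64 to 10.6 in controls and from 9.46 to 9.79 in knockouts, and endothelial markers were lower in 8 of 8 cases at CT6 (median -0.21) and 8 of 8 at CT12 (median -0.26). T and B lymphocyte markers were lower in 7 of 7 cases at CT6 (median -0.60) and higher in 5 of 7 at CT12 (median 0.18). Smooth muscle and pericyte markers were lower in 3 of 6 at CT6 (median 0.02) and 6 of 6 at CT12 (median -0.45). None of these lymphocyte and smooth muscle genes reached an unadjusted p under 0.05 in limma. Of the endothelial markers 1 of 8 did at CT6 and 4 of 8 at CT12, and of the brown and beige markers 2 of 10 at CT6. Macrophage markers were higher in 6 of 7 cases at CT6 (median 0.21, 0 at that p) and 6 of 7 at CT12 (median 0.22, 0). The part of all these markers in these values was not tested.

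At CT18 the genes lay higher in knockout fat, by a median of 0.09, beside 0.00 over all genes. Of the 91 genes 76 were higher and 15 lower, and 73 were both lower at CT0 and higher at CT18. The share of all genes that did both was not counted. By limma 0 passed over all genes, beside 0.00502% of all genes, and 4 reached an unadjusted p under 0.05, or 4.4%, beside 6.05%. Knockout arrays lay entirely above controls for 12 genes (4.33% of all genes) and below for 0 (4.25%). The median stayed between 0.06 and 0.12 when any single array was left out. Knockout replicate 3 held the highest value of the 24 arrays for 39 of the 91 genes, beside 11.8% of all genes. On that array macrophage markers deviated from their 24-array means by a median of -0.63 and adipocyte markers by -0.20. The count at that p was 2 without control replicate 2 and 9 without knockout replicate 2 of CT18.

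The higher values at CT18 were most even in complex I, where 28 of 28 supernumerary subunits (median 0.14) and 5 of 6 core subunits (median 0.10) were higher. Assembly factors of complex I were split, with 3 of 7 higher and a median of -0.01. In complex III 7 of 8 were higher (median 0.10), in complex IV 13 of 17 (median 0.10), in the ATP synthase 14 of 17 (median 0.10) in complex II 3 of 4 (median 0.03) and among its assembly factors 3 of 4 (median 0.10). Ndufs6, a zinc-binding subunit near the NADH end of complex I, had the smallest p. It read 10.18, 10.04 and 10.13 in controls and 10.37, 10.25 and 10.43 in knockouts, with no overlap and a difference of 0.23 ± 0.09 (limma adjusted p = 0.813). Cox4i2, the lung and hypoxia isoform of subunit 4, read 6.30, 6.43 and 6.28 in controls and 6.63, 6.33 and 6.65 in knockouts. Its groups overlapped at a difference of 0.20 ± 0.08 (limma adjusted p = 0.813). Ndufa1, a membrane-arm subunit of complex I, read 11.05, 10.99 and 11.08 in controls and 11.16, 11.18 and 11.54 in knockouts, a difference of 0.26 ± 0.12 (limma adjusted p = 0.820). Its groups did not overlap, and knockout replicate 3 was the highest, without which the difference was 0.13. The Cox4i2 difference was 0.30 without knockout replicate 2. The lower genes with the smallest p were Cox7b2 (-0.13 ± 0.08), Ndufv1 (-0.20, or -0.10 without knockout replicate 3) and Cox7a2l (-0.11, or -0.07 without control replicate 1). At CT18 the macrophage markers (7 genes, 7 lower in knockout means) ran from 11.2 to 11.9 in controls and from 11.0 to 11.6 in knockouts, and the adipocyte markers (9 genes, 5 higher) from 14.4 to 14.6 and from 14.5 to 14.6. Endothelial markers (8 genes, 8 lower) ran from 11.6 to 11.8 and from 11.3 to 11.6, and smooth muscle and pericyte markers (6 genes, 6 lower) from 12.2 to 12.5 and from 11.8 to 12.2. Their part in the result was not tested.

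Over circadian time, control fat showed little movement in these genes. Of the 91, 0 passed the limma F test over the 4 times (0.0602% of all genes passed), and 4 reached an unadjusted p under 0.05, or 4.4%, beside 5.8% of all genes. Group means were lowest at CT6 for 41 genes and highest at CT0 for 47, beside 28.4% and 15.2% of all genes. The count of 4 was 1 without control replicate 2 at CT0, replicate 1 at CT6 or replicate 3 at CT18, and 2 without replicate 1 at CT0, replicate 3 at CT6 or replicate 1 at CT18. CT12 minus CT0 had a median of -0.04, which turned to 0.01 without control replicate 2 at CT0 and 0.0027 without control replicate 2 at CT12 and was -0.11 without replicate 1 at CT12, with 0 passing (0.0401% of all genes) and 3 at an unadjusted p under 0.05 (4.94% of all genes). That count was 1 without control replicate 2 at CT0, replicate 2 at CT12 or replicate 3 at CT12, and 7 without replicate 1 at CT12. CT18 minus CT6 had a median of 0.05, with 0 passing (0.0602%) and 5 at that p (7.74%). The latter was 2 without control replicate 2 at CT6 or replicate 3 at CT18. From CT0 to CT12 in control fat T and B lymphocyte markers were lower in 7 of 7 cases (median -0.52, 0 at that p). Endothelial markers were higher in 7 of 8 (median 0.09, 2). From CT6 to CT18 lymphocyte markers were lower in 6 of 7 (median -0.38, 0) and mesothelium markers in 5 of 5 (median -0.40, 2). Their part in the result was not tested.

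The smallest p over time in control fat was that of Ndufaf2, whose arrays read 9.94, 9.95 and 9.86 at CT0 and 9.63, 9.68 and 9.65 at CT6, with no overlap. Its CT12 arrays read 9.86, 9.62 and 9.74 and its CT18 arrays 9.88, 9.74 and 9.58 (limma F test, adjusted p = 0.772). Sdhaf4, which assists assembly of the flavoprotein subunit of complex II, read 7.57, 7.80 and 7.95 at CT0 and 7.39, 7.21 and 7.49 at CT6. Its CT6 arrays lay below all others of control fat, with 8.21, 7.68 and 7.62 at CT12 and 7.89, 7.71 and 7.91 at CT18 (limma adjusted p = 0.811). Ndufa12, an accessory subunit of complex I, came next (limma adjusted p = 0.823), before Cox7b2 and Ndufaf3 (limma adjusted p = 0.857 and 0.876).

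Knockout fat showed more spread over time. Of the 91 genes 0 passed the F test (0.0702% of all genes passed), and 33 reached an unadjusted p under 0.05, or 36.3%, beside 13.4% of all genes. Group means were lowest at CT0 for 81 genes and highest at CT18 for 71, beside 27.6% and 40.8% of all genes. CT12 minus CT0 had a median of 0.15, beside -0.0030 over all genes, with 86 genes higher. By limma 0 passed (0.0953% of all genes), and 20 reached an unadjusted p under 0.05, all higher, or 22%, beside 9.77% of all genes in either direction and 5.42% of all genes in the higher direction. CT18 minus CT6 had a median of 0.11, beside 0.04 over all genes, with 0 passing (0.0201%) and 16 at that p (11.8%), 14 of them higher.

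These values changed with single arrays too. Without knockout replicate 2 at CT0 the count over time was 13 in place of 33, and CT12 minus CT0 had a median of 0.04, with 65 genes higher and 8 at an unadjusted p under 0.05. Without knockout replicate 3 at CT18 the count over time was 18. For CT12 minus CT0 the count was also 8 without knockout replicate 3 at CT12. For CT18 minus CT6 in knockout fat the count of 16 was 1 without knockout replicate 1 at CT6, 9 without replicate 3 at CT6, 25 without replicate 2 at CT18 and 2 without replicate 3 at CT18. Between CT0 and CT12 in knockout fat 5 of 6 smooth muscle and pericyte markers were lower at an unadjusted p under 0.05 (median of the 6 -1.03) and 4 of 7 macrophage markers were higher (median of the 7 0.47). Their summed levels ran from 12.5 to 13.2 at CT0 and from 11.6 to 12.0 at CT12 for the former, and from 10.9 to 11.8 and from 11.7 to 12.2 for the latter. Mammary and skin epithelium markers differed by a median of -0.55 (4 of 6 lower). Adipocyte markers were higher at CT12 than at CT0 in knockout fat in 8 of 9 cases (median 0.155, 2 at that p). Their summed levels ran from 14.1 to 14.6 at CT0 and from 14.4 to 14.6 at CT12. Uterine epithelium markers were lower in 6 of 6 cases (median -0.34, 1 at that p) and T and B lymphocyte markers in 7 of 7 (median -0.28, 0). From CT6 to CT18 in knockout fat macrophage markers were lower in 7 of 7 cases (median -0.42, 2 at that p), with summed levels from 11.6 to 11.9 at CT6 and from 11.0 to 11.6 at CT18. Mesothelium markers were lower in 5 of 5 (median -0.33, 3 at that p), with summed levels from 10.41 to 10.95 and from 10.06 to 10.51. Smooth muscle and pericyte markers were lower in 5 of 6 (median -0.46, 1 at that p), with summed levels from 12.3 to 12.7 and from 11.8 to 12.2. Their part in the result was not tested.

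Cox7b, a small membrane subunit of complex IV, came closest to passing over time in knockout fat. Its knockout arrays read 11.07, 10.90 and 11.09 at CT0, 11.08, 11.30 and 11.25 at CT6, 11.28, 11.30 and 11.31 at CT12, and 11.41, 11.38 and 11.51 at CT18. Every CT18 array lay above every CT12 array, and every CT12 array above every CT0 array. Its control arrays read 11.21, 11.35 and 11.17 at CT0, 11.12, 11.20 and 11.12 at CT6, 11.34, 11.10 and 11.19 at CT12, and 11.31, 11.25 and 11.28 at CT18. The F test over time gave an adjusted p of 0.0973 in knockout fat (limma). CT12 minus CT0 in knockout fat was 0.28 ± 0.08 (limma adjusted p = 0.203).

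Ndufa5, a subunit of the quinone-reducing part of complex I, read 9.81, 9.64 and 9.71 in knockout fat at CT0 and 10.05, 9.95 and 10.22 at CT18 (limma F test, adjusted p = 0.169). Atp5k, which encodes subunit e of the ATP synthase and helps hold its dimers, read 10.98, 10.58 and 10.99 at CT0 and 11.38, 11.13 and 11.44 at CT18 (limma F test, adjusted p = 0.185). Neither gene's CT0 arrays overlapped its CT18 arrays. Ndufs3 and Ndufb10, both subunits of complex I, followed (limma adjusted p = 0.185 and 0.193). The Atp5k window is printed as the example of a respiratory promoter that holds letters of both nuclear respiratory factors, at chr5:108434350-108434649 on the minus strand (RefSeq, GRCm38.p6, 250 bases before to 50 after the start). Capitals mark overlapping matches of GCGCATGC on both strands and CTTCCGG, the reverse complement of the ETS letters. It was chosen for those letters.
Atp5k: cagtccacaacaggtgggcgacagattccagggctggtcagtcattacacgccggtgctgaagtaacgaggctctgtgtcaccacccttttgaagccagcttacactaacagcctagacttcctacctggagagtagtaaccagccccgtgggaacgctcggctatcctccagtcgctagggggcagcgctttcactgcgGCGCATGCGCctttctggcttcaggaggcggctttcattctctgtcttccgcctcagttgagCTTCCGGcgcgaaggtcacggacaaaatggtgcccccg

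Whether the genotype difference itself varied over time was tested by the interaction. By the limma F test 0 of 91 genes passed (0% of all genes), and 13 reached an unadjusted p under 0.05, or 14.3%, beside 2.98% of all genes. The smallest p was that of Ndufaf2, followed by Ndufs3 and Ndufs6, each with a limma adjusted p of 1.00. Ndufaf2 read 9.85, 9.85 and 9.97 in knockout fat at CT18, above all its knockout arrays of CT0. Ndufs3 read 9.72, 9.70 and 9.88 there, against 9.63, 9.52 and 9.71 in controls. The count of 13 was 3 without knockout replicate 2 at CT0, 3 without control replicate 2 at CT0 and 0 without both. It was 6 without control replicate 1 at CT6, 7 without control replicate 2 at CT6, 7 without control replicate 2 at CT18, and 8 without control replicate 3 at CT12, knockout replicate 3 at CT6 or knockout replicate 3 at CT18.

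Several subunits of complex IV come as a common form and a tissue-restricted form. The 6 common forms (Cox4i1, Cox6a1, Cox6b1, Cox7b, Cox8a and Ndufa4) had averaged genotype differences between -0.06 (Cox6b1) and 0.02 (Cox7b), and 0 of the 6 had an unadjusted p under 0.05 in limma. Among their partners, Cox4i2 differed by 0.08 ± 0.04, Cox8c by 0.11 ± 0.06, Cox6a2 by 0.12 ± 0.08, Cox6b2 (testis) by -0.03 ± 0.08 and Cox7b2 by -0.02 ± 0.04. Cox6a2 ran from 6.22 on control replicate 1 to 7.43 on knockout replicate 1, both at CT18. These probe sets were dim or varied more between replicates, with a pooled SD of 0.23 for Cox6a2 and 0.22 for Cox6b2 beside 0.05 for Cox6c.

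For 18 of the 91 genes the array held several probe sets of that single symbol. In all 18 the probe sets had the same sign at CT0. The used probe set of Ndufc1 gave -0.30 ± 0.11 at CT0 and the other -0.34 ± 0.17, and those of Ndufs3 gave -0.29 and -0.24. At CT18 the probe sets of 3 genes disagreed in sign, at 0.11 and -0.22 for Uqcr11, 0.15 and -0.0067 for Ndufb11 and 0.0067 and -0.04 for Atp5g1. Processed pseudogenes are common for these families, and a probe set may also read such copies. Cox7c and Ndufb4 were measured only on probe sets that carry a further symbol (Gm12338 and Ndufb4b) and were left out.

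The other genes of the mitochondrial machinery showed how far the pattern at CT0 extended. Cytochrome c and other carriers and chain genes outside the rule (18 measured) were lower in 15 cases, with a median of -0.11 and 5 at an unadjusted p under 0.05. Tricarboxylic acid cycle genes (15) were lower in 14 cases (median -0.18, 5), mitochondrial ribosome genes (77) in 64 (median -0.10, 13), further assembly factors (28) in 23 (median -0.12, 4) and carriers and pores of the inner and outer membrane (8) in 7 (median -0.09, 0). Regulators of mitochondrial biogenesis (17) leaned the other way, with 12 higher, a median of 0.07 and 0 at that p. The mitochondrially encoded COX2 and ND3 differed by -0.06 ± 0.11 and -0.07 ± 0.10. None of these genes passed over all genes in any of the 12 comparisons (limma). Without both replicate 2 arrays of CT0 the medians were -0.04 for the carriers and chain genes, -0.02 for the tricarboxylic acid cycle, -0.0046 for the mitochondrial ribosome, 0.0002 for the assembly factors, -0.0007 for the membrane carriers and pores and 0.08 for the regulators. COX2 and ND3 then differed by -0.12 and -0.10.

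Cyc1, the cytochrome c1 subunit of complex III, differed by -0.34 ± 0.14 at CT0, and Cycs, cytochrome c itself, by -0.35 ± 0.14. Cs, citrate synthase, differed by -0.28 ± 0.12. The muscle and brown fat forms Cox7a1 and Cox8b differed by -0.56 ± 0.20 and -0.73 ± 0.35. Cox8b read 8.23, 9.57 and 8.18 in controls and 8.20, 7.56 and 8.01 in knockouts, with control replicate 2 far above its group. Without both replicate 2 arrays the differences were -0.09 for Cox8b, -0.35 for Cox7a1, -0.12 for Cyc1, -0.25 for Cycs and -0.09 for Cs. For Nrf1 and Gabpa, whose factors drive many respiratory genes, the differences at CT0 were 0.18 ± 0.10 and 0.11 ± 0.08, and 0.10 and 0.11 without both replicate 2 arrays.

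By averaged difference, the genes with the smallest p in these lists were Cox7a1 (-0.21 ± 0.10), Gpd2 (-0.19 ± 0.11) and Coq5 (0.11 ± 0.07) among the carriers and chain genes. Among assembly factors they were Coa6 (-0.11 ± 0.05), Surf1 (-0.08 ± 0.05) and Cox20 (-0.06 ± 0.04), and in the tricarboxylic acid cycle Pdha1 (-0.15 ± 0.07), Ogdh (-0.11 ± 0.06) and Sucla2 (0.07 ± 0.06). For the regulators they were Twnk, the mitochondrial helicase (0.11 ± 0.05), Tfb1m (0.12 ± 0.06) and Gabpb1 (-0.07 ± 0.05). The uncoupling proteins Ucp3 and Ucp1 led the carriers and pores at 0.15 ± 0.10 and -0.22 ± 0.15, and Mrps30 the mitochondrial ribosome at 0.11 ± 0.05.

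**Figure D5:**
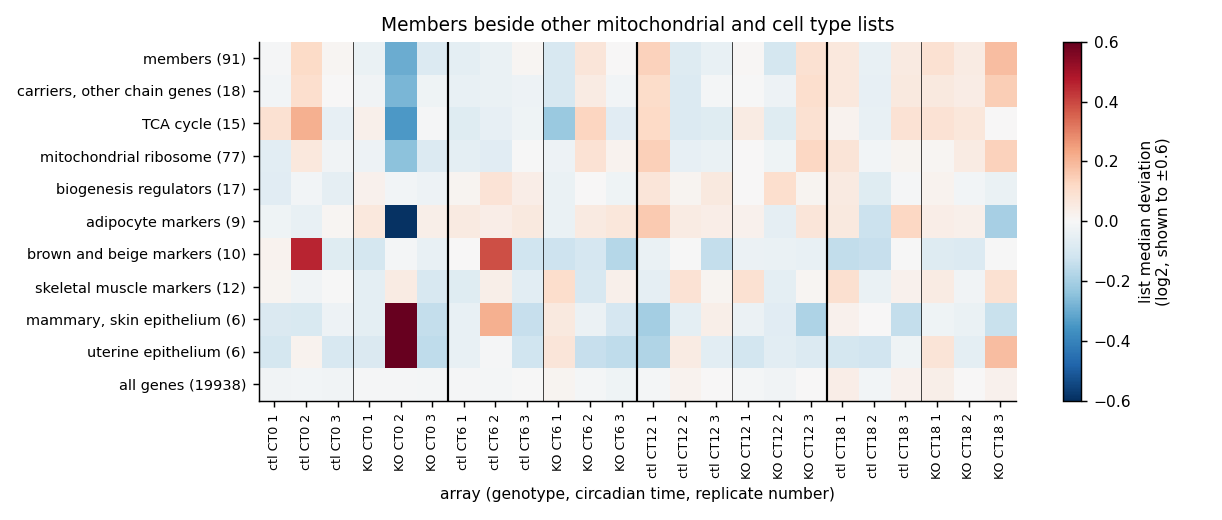
Median deviation of each list's genes from their 24-array means on the log2 scale, shown to ±0.6 (colour), for the 91 genes, other mitochondrial lists, cell type markers and all genes (rows, number of genes in brackets) on the 24 arrays (columns). Knockout replicate 2 at CT0 is blue for the 91 genes, carriers and other chain genes, tricarboxylic acid cycle, mitochondrial ribosome and adipocyte markers. It is red for the epithelial lists, while the rows of the biogenesis regulators and of all genes stay near zero.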

How the data were processed

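Gene expression was measured on 24 Affymetrix arrays of mouse inguinal fat, 1 per sample, in 8 groups of 3 labelled biological replicates. Per the labels' protocols, 50 ng of Trizol-extracted RNA was amplified and labelled with biotin. The authors deposited log2 values made with RMA, which includes quantile normalization, per the submitters' processing notes. Neither the version of RMA nor scan dates are given in the sources used here. Values were used as deposited, and the number of arrays limits precision.

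Of 35556 probe sets, 21789 had 1 symbol in the platform annotation, 1621 had several and 12146 were unnamed here. A gene was read from its single-symbol probe set with the highest mean, which left 19938 genes. The 8 group means were fitted with limma 3.58.1 under R 4.3.3 (functions lmFit and eBayes) on the 24 arrays together, with 16 residual and 5.03 prior degrees of freedom. P-values were adjusted over the 19938 genes by Benjamini and Hochberg's method at a threshold of 0.05, and they measure the spread between the labelled replicates. Promoters were searched in Python 3.11.15. The fit was tested on simulated data.

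The genes, lists and tests were chosen with earlier results of these data known. Genes named are, among the 91, the 5 higher and 5 lower with the smallest p for the averaged difference, 3 each way at each time, 5 over time in each genotype, 3 by interaction, the brightest and dimmest of each complex and isoform pairs. Outside the 91 they are up to 3 genes of each list, those with the smallest p for the averaged difference. Other genes were named after their values were seen. The alternatives were further normalization, centring, the mean of probe sets, dim genes left out, the prior, array weights, a replicate block, smaller fits and arrays left out. Leaving out the replicate 2 arrays of CT0 (for all 91, single genes and lists), and keeping only genes with 1 probe set, were chosen after seeing the data.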

Additional observations from a re-analysis of the deposited data

Results flagged for a closer look

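Summarised as the median deviation of the 91 genes from their 24-array means, every knockout array lay below the control mean at CT0 and every knockout array above it at CT18. The difference between the genotype means was -0.1791 at CT0 and 0.0853 at CT18. At CT0 the genotypes did not overlap, and knockout replicate 2 lay at -0.2967, beside -0.0382 and -0.0815 for replicates 1 and 3. At CT18 they overlapped, with knockout replicate 2 at 0.0498 and control replicates 1 and 3 at 0.0633 and 0.0523. The pooled SD within groups was 0.0889. The difference between the 2 times was not tested for this summary. Gene by gene it was tested by the interaction, which 0 of 91 genes passed (limma F test).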

How the results depend on the processing

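Of the 12 comparisons, the count of genes passing over all genes stayed at 0 under every alternative run, except that 1 gene (Ndufv3, averaged difference 0.29) passed with replicate 1 at CT12 and replicate 3 at CT18 of both genotypes left out. Counts at an unadjusted p under 0.05 depended more on the setting. With array weights they were 17 at CT0, 7 over time in control fat, 16 over time in knockout fat, 8 for the interaction and 12 for CT12 minus CT0 in knockout fat. With only the compared groups in the fit they were 14 at CT0, 2 over time in control fat and 9 for CT12 minus CT0 in knockout fat. With those 4 arrays left out, 18 were found over time in knockout fat. Without both replicate 2 arrays of CT0 they were 1 at CT0, 1 over time in control fat, 14 over time in knockout fat, 0 for the interaction and 8 for CT12 minus CT0 in knockout fat, and the median differences were -0.0561 at CT0 and 0.0399 for CT12 minus CT0 in knockout fat. When each array was left out in turn, the counts ran from 5 to 41 at CT0, 1 to 5 and 13 to 38 over time in control and knockout fat, 3 to 19 for the interaction and 8 to 28 for CT12 minus CT0 in knockout fat, with medians of -0.2457 to -0.0977 at CT0 and 0.0399 to 0.194 for CT12 minus CT0. At CT0 Cox6a2 turned to -0.0059 with array weights and -0.0745 without both replicate 2 arrays, and ran from -0.0229 to 0.1358 with each array left out. Cox7b2 turned to -0.0043 with centred arrays and ran from -0.01 to 0.0617. The causes were not tested. With further quantile normalization the count was 28 for CT18 minus CT6 in knockout fat and 11 at CT18, and with centred arrays the former was 7.

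Same-numbered arrays of the 2 genotypes correlated in their deviations from the group means at -0.37 to 0.37, with 5 of 12 pairs over 0.1. At CT0 all 3 pairs were over 0.1 (0.19, 0.37 and 0.33), while at the other times the numbers showed no such pairing. With the replicate block 0 genes passed in any comparison, the count at an unadjusted p under 0.05 was 29 at CT0 (24 with a replicate block of pairs), and Ndufv3 kept its averaged difference of 0.19 (limma adjusted p = 0.545). With a replicate block of pairs the interaction count was 7. The 5 genes dimmer than the median gene may be limited by background.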
